A study of Mus musculus with 2 samples.

Results

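Laminins and integrins form the main adhesive link between epithelium, fat, vessels and the basement membrane of the mammary gland, and their RNA was followed here through the nuclei of the lactating mouse gland. The genes were taken from the deposited gene list by symbol alone: every laminin alpha, beta or gamma chain gene and every integrin alpha or beta subunit gene, with no measured value used. This gave 37 of 33943 genes, 11 of them laminin chains, 18 integrin alpha subunits and 8 integrin beta subunits. All 37 had UMIs (unique molecular identifiers, each the count of 1 captured RNA molecule), from 20 for Itgad to 19804 for Lama2 in the nuclei that were clustered.

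The samples were inguinal mammary fat pads of lactating dams on postnatal day 11, with lymph nodes removed, frozen and pooled as nuclei in 1 droplet library. The labels name 4 dams with a floxed oxytocin receptor gene (Oxtr flox) and 4 with an adipocyte-specific Oxtr knockout. Breeding pairs were set up at 8 weeks of age, and litters were brought to 4 or 5 pups per cage, although 7 litters are listed with 5 pups and 1 with 3. The hashtags, short DNA tags added per animal, call the controls WT, which was taken as the floxed group because no other control genotype is named. No source used here gives the promoter behind the deletion. The second group is written as KO-labelled animals.

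Laminins are trimers of an alpha, a beta and a gamma chain that are secreted and assemble into the sheet of the basement membrane, while integrins are pairs of an alpha and a beta subunit that span the cell membrane and hold that sheet or other matrix and cell surface proteins. In the mammary gland, myoepithelial cells sit on the basement membrane around the milk-making secretory luminal cells, and adhesion to laminin is known to sustain milk protein expression. Adipocytes carry a basement membrane of their own, and leukocytes use a separate group of integrins to adhere and migrate.

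A set of 18813 barcodes without a doublet hashtag was clustered into 12 types named from marker genes, each name meaning that the nuclei were like that type. Of these, 13057 carried the hashtag of 1 named animal, with 1200 to 1991 nuclei and a median of 4342 to 5610 UMIs per nucleus in each animal. All 21805 deposited barcodes of the RNA library also had hashtag UMIs. The secretory luminal type held 12089 nuclei, of which 4493 lay in a cluster led by mitochondrial genes. It was followed by myoepithelial (1870), fibroblast (1740), macrophage (820), vascular endothelial (626), adipocyte (460), luminal progenitor (289), neuron (278), plasma (243), T and NK (193), pericyte (146) and hormone-sensing luminal nuclei (59). Most neuron nuclei, 240, carried a hashtag named as an unknown sample and stayed outside all comparisons between animals. Milk protein genes took 4.56% of UMIs in neurons and 19.6% in pericytes, cells that make no milk, and per the labels only some samples were washed against free RNA. Oxtr had 1 UMI in the adipocyte nuclei of each WT animal and 4, 5, 5 and 3 in KO-labelled animals 1 to 4. The targeted gene was thus not lower in adipocyte nuclei under its label. In myoepithelial nuclei, WT animals 1 to 4 had 260, 221, 226 and 229 CPM of Oxtr (a scaled count defined below). KO-labelled animals 1 to 4 had 178, 201, 181 and 205 CPM there, lower without overlap. In adipocyte nuclei Oxtr was at 4.40, 6.23, 4.96 and 5.46 CPM in WT animals 1 to 4. KO-labelled animals 1 to 4 had 14.3, 13.9, 22.3 and 12.5 CPM there, higher without overlap, though on the few UMIs given above. The groups overlapped in the remaining types with values per animal. The causes of the myoepithelial and adipocyte differences were not tested. The labels do not state whether the Oxtr UMIs fall inside the deleted part, and a UMI outside it checks nothing.

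Across the 7 types that had at least 10 nuclei in every animal, the genes differed in where their mean level was highest. Levels are CPM, counts of a gene scaled to the UMIs summed per animal and type, and since UMIs are not scaled by gene length, they are compared between cell types and not between genes. Pooled levels and shares of nuclei instead take all clustered nuclei of a type or cluster, also those among the 5479 without an assigned hashtag. A named animal's hashtag was carried by 706 of 1740 fibroblast, 936 of 1870 myoepithelial and 34 of 146 pericyte nuclei. Of the 37 genes, 10 had their highest mean over the 8 animals in myoepithelial nuclei, 10 in macrophage, 6 in fibroblast, 4 in adipocyte, 4 in luminal progenitor, 2 in vascular endothelial and 1 in secretory luminal nuclei. Animals did not overlap with the next type for 6 of the 10 myoepithelial, 4 of the 10 macrophage, 4 of the 6 fibroblast and 1 of the 4 adipocyte genes. In the remaining types this held for 0 genes. All 10 of the macrophage genes were integrins, whereas 4 of the 6 fibroblast genes were laminins. Of these 10, Itgad, Itgb7 and Itgam had only 3, 12 and 27 UMIs in macrophages of the 8 animals. By pooled levels over all 12 types, 5 genes were highest in macrophages. T and NK nuclei then held 6, among them Itga4, Itgad, Itgal, Itgb2 and Itgb7, and pericytes held 4, Itga7, Itgb1, Itga1 and Itga10. Among the 32 genes of the set with at least 100 UMIs in these types, myoepithelial nuclei held the highest mean of 31.2%, against 13.8% of all 14173 genes with that many UMIs. The shares were 18.8% against 10.7% in fibroblasts, 18.8% against 16.6% in macrophages, 12.5% against 19.5% in luminal progenitors, 9.38% against 19.1% in adipocytes, 6.25% against 10.4% in vascular endothelium and 3.12% against 9.93% in secretory luminal nuclei. Clusters were made from the same nuclei, so these levels are a description without a test, although the 37 genes were kept out of the variable genes used for clustering.

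**Figure D1:**
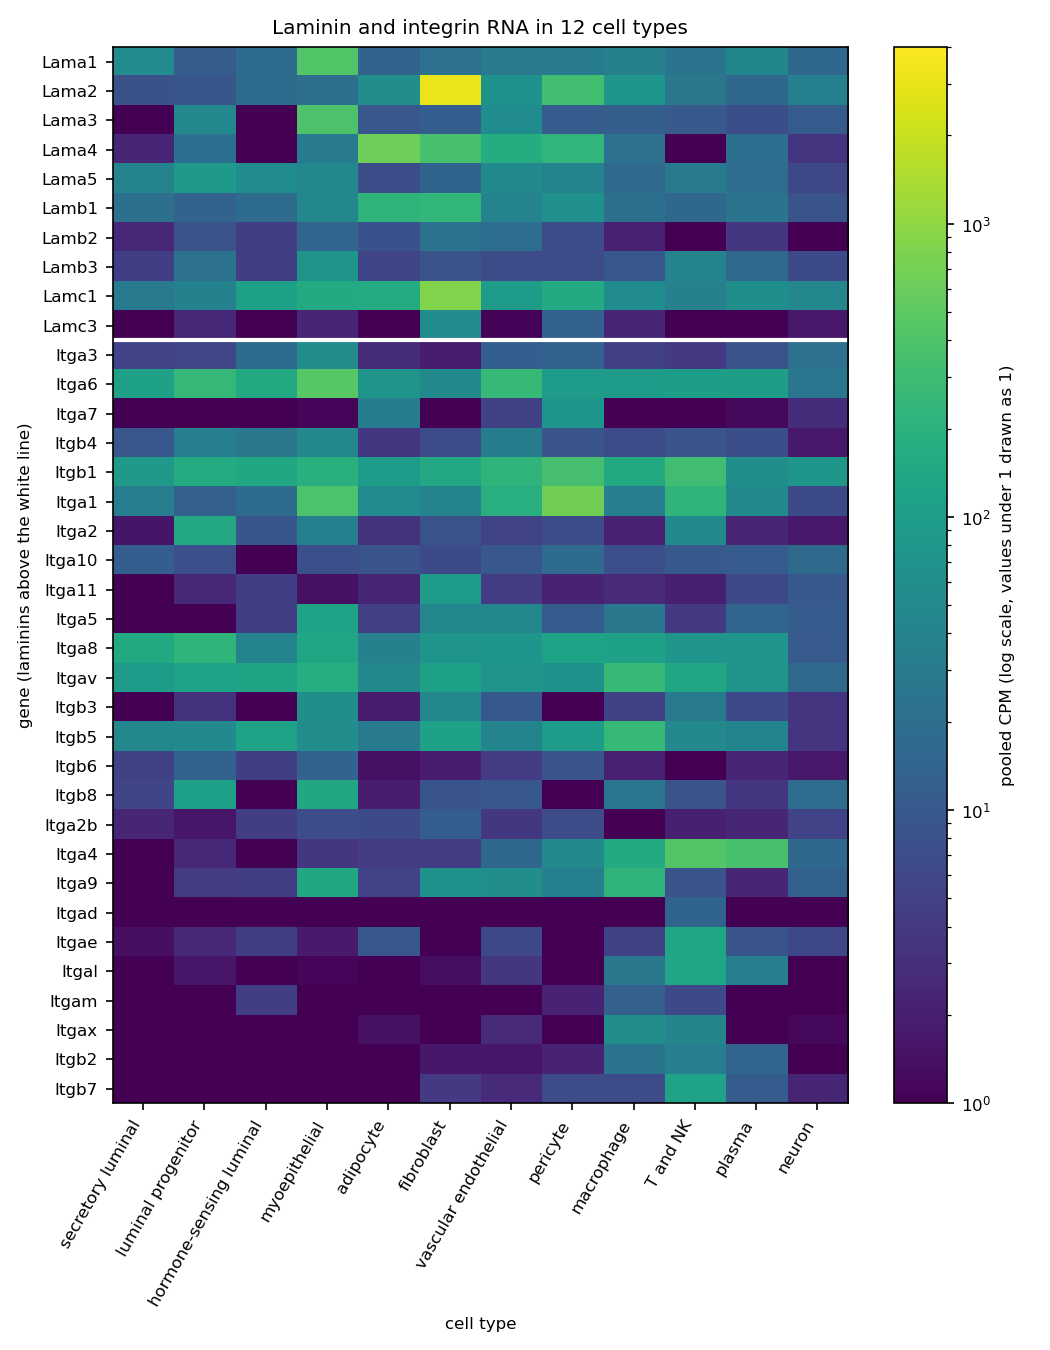
Pooled level of 36 of the 37 genes (rows) in 12 cell types (columns), with colour on a log scale of CPM over all clustered nuclei of a type. Lama2 in fibroblasts is the brightest field, at 3102 CPM, the myoepithelial column is bright for Lama1, Lama3, Itga6 and Itga1, and the leukocyte integrins in the lowest rows are near 0 outside the immune columns.

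Stromal laminin chains came first from fibroblasts. Lama2, which encodes the alpha2 chain of muscle and stromal basement membranes, ranged from 2135 CPM in the lowest of 8 animals over a median of 2488 to 3446 CPM in the highest in fibroblast nuclei (mean 2599 ± 454, SD, n = 8). The next type, adipocytes, had a mean of 73.5 CPM, 35.3-fold lower, and no animal's fibroblast value came near any value there. After each nucleus was thinned to 1000 UMIs, a Lama2 UMI remained in 83.4% of fibroblast nuclei (92.1% before thinning, median depth 2733 UMIs), in 27.1% of pericyte nuclei (39.7% before) and in 0.937% of secretory luminal nuclei (3.78% before, median depth 4846 UMIs). Lamc1, the gamma1 chain shared by most laminins, ran from 535 over 647 to 829 CPM in fibroblasts (lowest, median, highest of 8), 4.01-fold above adipocytes by means. Lamc3, a gamma chain of restricted distribution, stood at 46.0 ± 11.5 CPM in fibroblasts (SD, n = 8), 17.1-fold above myoepithelial nuclei, its second type, and its range did not touch that of any other type. Lamb2, the beta2 chain, was low throughout, with a highest mean of 20.6 CPM in fibroblasts that overlapped the vascular endothelial values.

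Adipocytes stood out by Lama4, the alpha4 chain known from fat, vessels and other mesenchymal basement membranes. Its level ran from 436 over 603 to 803 CPM in adipocytes (lowest, median, highest of 8 animals), 2.16-fold above fibroblasts, where it ran from 206 over 299 to 340 CPM. The ranges of these 2 types did not overlap, and both lay above vascular endothelium (mean 88.5 CPM). Lamb1, the beta1 chain, could not be placed first in either: the means were 229 ± 55.1 CPM in adipocytes and 216 ± 49.4 in fibroblasts (SD, n = 8 each), with overlapping animals, and both ranges lay above the myoepithelial mean of 46.4 CPM. In pericytes, which were too few for values per animal, pooled Lama4 reached 236 CPM (95% Poisson interval 193 to 286, counting error only) and Lama2 322 CPM (271 to 379). Secretory luminal nuclei, with a mean of 2.04 CPM of Lama4, lay lowest among the 7 types.

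The myoepithelial layer carried a different set of chains. Lama1, the alpha1 chain of embryonic and epithelial basement membranes, ran from 193 over 374 to 454 CPM in myoepithelial nuclei, 6.48-fold above secretory luminal nuclei, where it ran from 32.0 over 56.3 to 66.6 CPM. Lama3 and Lamb3, chains of the laminin under hemidesmosomes, the rivet-like junctions at the epithelial base, were highest there too. Lama3 (alpha3) ran from 281 over 328 to 469 CPM, 5.91-fold above vascular endothelium by means, and Lamb3 (beta3) from 38.0 over 55.2 to 72.9 CPM, 3.21-fold above luminal progenitors. For Lama1, Lama3 and Lamb3, every animal's myoepithelial value lay above every animal's value in the second type. Lama5, the alpha5 chain of mature epithelial and vascular membranes, was spread more evenly, from 14.5 over 80.6 to 146 CPM in luminal progenitors, its highest type, which overlapped vascular endothelium at 59.5 CPM.

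**Figure D2:**
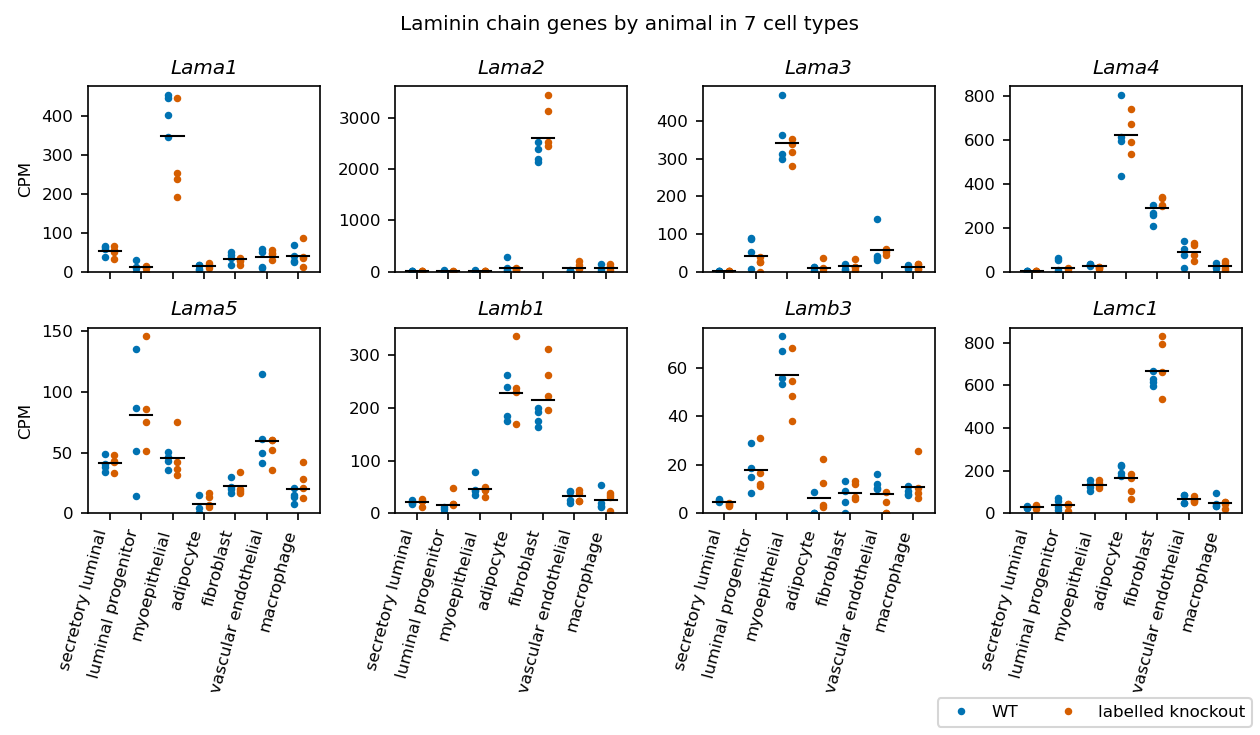
Level (CPM) of 8 laminin chain genes in 7 cell types, with 1 point per animal (WT blue, labelled knockout orange) and a black line at the mean of 8 animals. Lama2 and Lamc1 stand apart in fibroblasts, Lama4 in adipocytes and then fibroblasts, and Lama1, Lama3 and Lamb3 in myoepithelial nuclei, while Lama5 is spread over several types.

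Among the integrin subunits that bind laminin, the alpha3 and alpha6 genes were also highest in myoepithelial nuclei. Itga3 ran from 47.6 over 55.2 to 73.7 CPM (lowest, median, highest of 8 animals), 3.67-fold above vascular endothelium and clear of it in every animal. Itga6 ran from 340 over 394 to 492 CPM, but luminal progenitors (mean 244 ± 122 CPM) overlapped it and vascular endothelium followed at 205 ± 45.0 CPM (SD, n = 8 each). Itgb4, the partner of alpha6 in hemidesmosomes, had nearly equal means in vascular endothelium (40.2 CPM) and myoepithelial nuclei (39.1 CPM). Itga7, an alpha subunit known from muscle, was seen in few nuclei, with 32.5 ± 13.6 CPM in adipocytes (SD, n = 8) and 78.7 CPM pooled in pericytes (95% Poisson interval 54.8 to 109). Itgb1, the common beta subunit that pairs with most of these alpha chains, was seen in all 7 types, with means from 85.0 ± 3.85 CPM in secretory luminal nuclei to 194 ± 35.2 CPM in vascular endothelium (SD, n = 8 each). The 5 highest types, vascular endothelium, myoepithelium, luminal progenitors, macrophages and fibroblasts, overlapped one another, so their order could not be read.

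Among the collagen-binding integrins, Itga1 and Itga11 were clear of the second of the 7 types, and Itga2 and Itga10 were not. Itga1 ran from 246 over 286 to 492 CPM in myoepithelial nuclei, 2.24-fold above vascular endothelium without overlap, and its pooled level in pericytes was 659 CPM (95% Poisson interval 586 to 739). Itga2 was highest in luminal progenitors, from 0 in WT animal 4 over a median of 135 to 341 CPM in WT animal 1. That range is wide enough to overlap myoepithelial nuclei (mean 32.9 CPM), and luminal progenitors had as few as 14 nuclei in an animal. Itga11, the collagen receptor of fibroblasts, ran from 46.5 over 82.3 to 91.2 CPM there, 14.7-fold above vascular endothelium. Itga10 had its highest mean in secretory luminal nuclei at 12.5 CPM, within the spread of vascular endothelium at 11.6 CPM.

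The subunits that recognise the RGD motif of fibronectin, vitronectin and related ligands had their highest means in several types. Itga5, Itgb3 and Itgb8 were highest in myoepithelium, Itgav and Itgb5 in macrophages, Itga8 and Itgb6 in luminal progenitors, and Itga2b in fibroblasts. In myoepithelial nuclei Itga5, the alpha subunit of the fibronectin receptor, ran from 52.5 over 120 to 175 CPM, Itgb3 from 34.6 over 50.5 to 86.2 CPM and Itgb8 from 101 over 115 to 161 CPM. Each of these overlapped the next type in some animal: Itga5 and Itgb3 overlapped fibroblasts (means 40.9 and 42.4 CPM) and Itgb8 overlapped luminal progenitors (mean 80.9 CPM). Secretory luminal nuclei had means of 0.550 CPM for Itga5 and 0.753 for Itgb3. Itga8 was broad, with 229 ± 56.1 CPM in luminal progenitors, 150 ± 44.1 in secretory luminal and 137 ± 27.4 in myoepithelial nuclei (SD, n = 8 each), all overlapping. Itgb6, a subunit of activated epithelia, stayed at or under a mean of 13.6 CPM in all 7 types, and Itga2b, the platelet subunit, at or under 9.74 CPM.

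Macrophage nuclei had the highest levels of Itgav, the alpha chain shared by several vitronectin receptors (from 142 over 242 to 386 CPM), of its partner Itgb5 (from 154 over 219 to 455 CPM), and of Itga9 (from 90.1 over 201 to 349 CPM) and Itga4 (from 76.0 over 131 to 174 CPM). Itgax, the alpha subunit of a leukocyte receptor known from dendritic cells and some macrophages, ran from 19.3 over 54.7 to 125 CPM. Only Itgb5 and Itgax of these 5 were clear of the second type in every animal. Itgav, Itgb5 and Itga9 no longer had their highest mean in macrophages at a finer clustering, with at least 1000 UMIs per nucleus, or without the highest Scrublet scores, settings in which part of these nuclei lost the macrophage name. Pooled Itga4 was higher still in T and NK nuclei, at 440 CPM (95% Poisson interval 383 to 503), and in plasma nuclei, at 353 CPM (313 to 396). Itgal, Itgae and Itgb7, which serve lymphocyte homing and epithelial retention, had pooled levels of 138, 131 and 117 CPM in T and NK nuclei. Itgb2, the common beta subunit of leukocytes, was at 23.0 ± 11.4 CPM in macrophages (SD, n = 8), and its pooled level was higher in T and NK nuclei. Itgam and Itgad had 60 and 20 UMIs in all clustered nuclei.

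**Figure D3:**
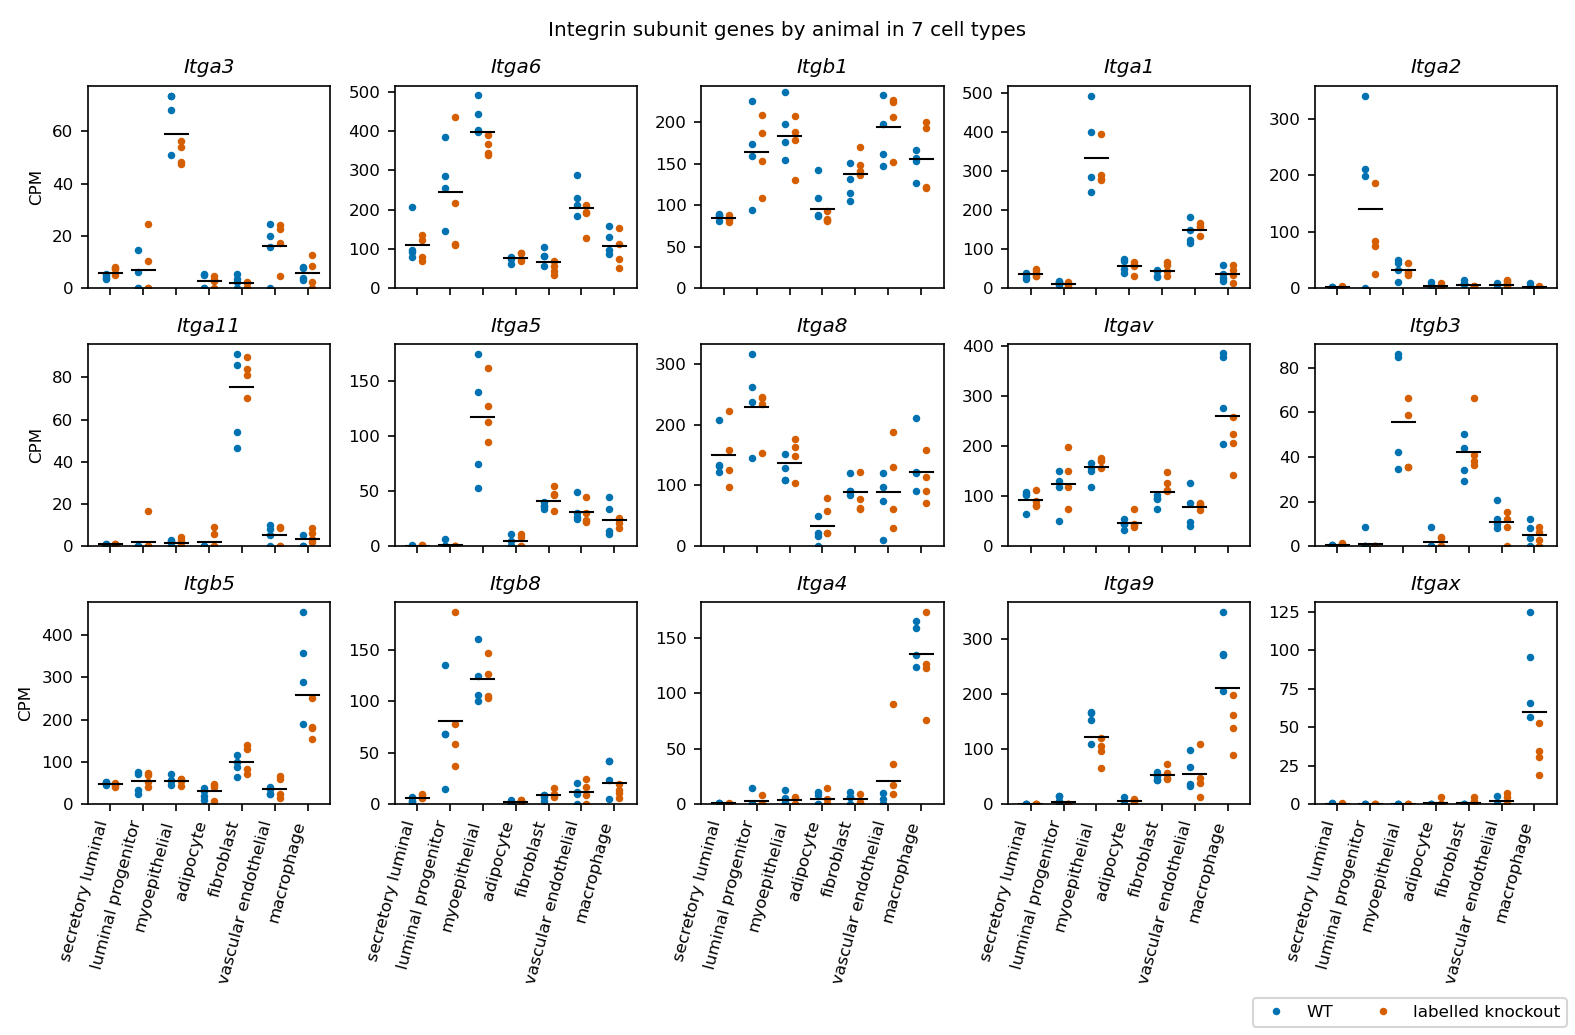
Level (CPM) of 15 integrin subunit genes in 7 cell types, with 1 point per animal (WT blue, labelled knockout orange) and a black line at the mean of 8 animals. Itga3 and Itga1 peak in myoepithelial nuclei, Itga11 in fibroblasts, Itga2 in luminal progenitors with a wide spread, and Itgav, Itgb5, Itga9 and Itgax in macrophages, while Itgb1 and Itga8 are broad.

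Within 3 cell types the genes differed again between clusters. Macrophage nuclei split at a finer clustering (Leiden resolution 1.0) into 442 nuclei led by F13a1 and 360 led by Klra2, and the second cluster then met 5 dendritic markers and took that name in place of macrophage, although none of these markers was among its 10 leading genes. The macrophage integrins ran in both directions between the clusters. In the cluster led by Klra2 against the one led by F13a1, Itgb5 was at 428 against 48.2 CPM, Itgav at 410 against 79.0, Itga9 at 333 against 83.2 and Itgax at 107 against 6.29 CPM (pooled, 95% Poisson intervals 398 to 459 against 37.5 to 61.0 for Itgb5 and 92.0 to 123 against 2.88 to 11.9 for Itgax). The order was the same in all 8 animals for these 4 genes. Itgam ran the other way, at 2.23 CPM in the cluster led by Klra2 and 26.6 in the one led by F13a1, which was higher in 8 of 8 animals, though on 4 and 38 UMIs. Itga4 was at 119 against 189 CPM (lower in 6 of 8 animals) and Itgb7 at 0.56 against 14.7 CPM, on 1 and 21 UMIs. Leaving the cluster led by Klra2 out of the macrophage type, as the finer clustering does, left macrophage means of 46.9 CPM for Itgb5, 73.9 for Itgav, 67.3 for Itga9 and 4.66 for Itgax.

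Myoepithelial nuclei split into 824 led by Myh11, the smooth muscle myosin of contractile cells, and 1046 led by Gm30613. Itga5 was 7.78-fold higher in the first, at 245 against 31.5 CPM pooled (95% Poisson intervals 227 to 265 and 25.9 to 38.0). Itgb3 (112 against 23.1 CPM), Itga1 (669 against 155), Lama1 (719 against 184), Itga6 (650 against 325) and Lama3 (544 against 284) lay the same way, and all 6 did so in each of the 8 animals. Itgb4, by contrast, had overlapping counting intervals in the 2 clusters.

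Fibroblasts fell into 1269 nuclei led by Itgbl1 and 471 led by Fndc1 and Pi16. Pooled Lama2 was at 3774 CPM in the first and 1274 in the second, Lamb1 at 299 against 102, and Lamc3 at 76.4 against 1.25 CPM, the latter from 2 UMIs. Means over the 8 animals were 3154 and 904 CPM for Lama2, 260 and 85.8 for Lamb1, and 59.8 and 1.91 for Lamc3. Itga9 ran the other way, at 44.9 against 131 CPM pooled (means over animals 38.7 and 97.7). All 4 genes had these orders in each of the 8 animals.

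**Figure D4:**
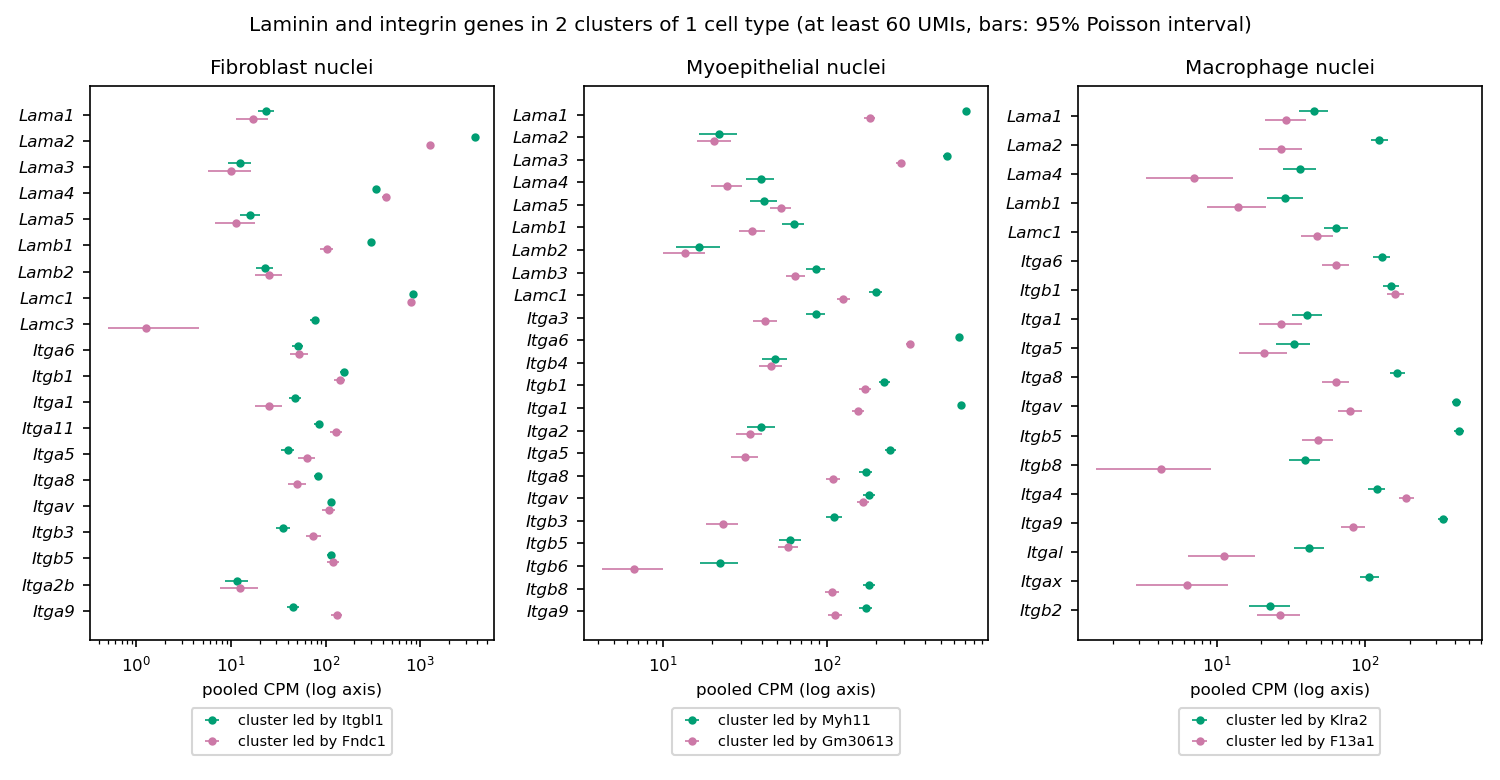
Pooled level (CPM, log axis) of laminin and integrin genes with at least 60 UMIs, 1 of the 37 left out, in 2 clusters of fibroblast, myoepithelial and macrophage nuclei, with 95% Poisson intervals for counting error, cut at 0.5 CPM. The widest gaps are Lamc3 in fibroblasts, Itga5 in myoepithelial nuclei, and Itgb8, Itgb5 and Itgax in macrophage nuclei.

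The sequences just before the start sites of 3 genes are shown to set these genes beside their promoters: Itga5 differed between the myoepithelial clusters, and Itgb5 and Itgax between the macrophage clusters. They are the 250 bases upstream of the start in RefSeq's table for the build GRCm38.p6, 5′ to 3′ in the gene's direction, for Itga5 (chr15:103366792-103367041, minus strand), Itgb5 (chr16:33829415-33829664, plus strand) and Itgax (chr7:128129300-128129549, plus strand). Capitals mark every match to the GC box GGGCGG, the AP-1 site TGANTCA or the TATA motif TATAAA on either strand.
Itga5: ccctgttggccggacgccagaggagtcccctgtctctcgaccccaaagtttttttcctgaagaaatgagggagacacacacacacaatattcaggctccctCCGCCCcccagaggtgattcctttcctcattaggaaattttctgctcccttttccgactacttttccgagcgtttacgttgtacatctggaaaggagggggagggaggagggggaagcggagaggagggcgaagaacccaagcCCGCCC
Itgb5: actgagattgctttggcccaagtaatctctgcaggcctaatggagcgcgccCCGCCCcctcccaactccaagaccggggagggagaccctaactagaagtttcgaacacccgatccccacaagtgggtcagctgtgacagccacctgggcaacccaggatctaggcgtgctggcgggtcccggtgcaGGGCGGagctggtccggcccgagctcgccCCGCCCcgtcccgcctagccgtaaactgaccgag
Itgax: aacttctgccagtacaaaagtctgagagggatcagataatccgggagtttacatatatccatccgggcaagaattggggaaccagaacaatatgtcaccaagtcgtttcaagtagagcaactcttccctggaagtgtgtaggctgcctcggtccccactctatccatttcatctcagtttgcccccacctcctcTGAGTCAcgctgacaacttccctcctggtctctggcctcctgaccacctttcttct

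Itga5 held 2 GC boxes, whose first bases lay 149 and 6 bases before the start, and Itgb5 held 3, at 199, 63 and 34 bases. Itgax held no GC box and 1 AP-1 match at 56 bases, and none of the 3 held the TATA motif. The table had 26 start sites of 23 of the 37 genes. Of these 26, 9 held a GC box and 1 an AP-1 match, and none held the TATA motif, against 32.7%, 6.75% and 12.4% of all 32851 start sites in the table. A match describes letters and not a bound site.

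The genotype comparison asked whether these genes differed between WT animals and KO-labelled animals within a cell type. No laminin or integrin gene passed edgeR's quasi-likelihood test at an adjusted p of 0.05 in any of the 7 types, and DESeq2 called none either. In all, 32 of the 37 genes could be tested in at least 1 type, giving 92 tests: 7 in adipocytes, 16 in fibroblasts, 6 in luminal progenitors, 13 in macrophages, 21 in myoepithelial, 23 in secretory luminal and 6 in vascular endothelial nuclei. Itga7, Itgad, Itgam, Itgb2 and Itgb7 were too low everywhere. The background of edgeR was as sparse: it called 0% of all genes tested in adipocytes, fibroblasts, luminal progenitors, macrophages and secretory luminal nuclei, 0.0148% in myoepithelial and 0.043% in vascular endothelial nuclei. Over the 39924 tests of all genes, edgeR made 2 calls and DESeq2 29, of which 24 were in secretory luminal nuclei. The unadjusted p was under 0.05 in 15 of the 92 tests (16.3%), against 7.01% over all genes tested. Of the 15, 10 lay lower in KO-labelled animals and 5 higher.

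Animals of the 2 groups did not overlap for 7 of the 92 tests. That count was 0 of 7 in adipocytes (3.76% of all genes tested there), 1 of 16 in fibroblasts (3.2%), 0 of 6 in luminal progenitors (3.75%), 2 of 13 in macrophages (3.12%), 2 of 21 in myoepithelial (4%), 2 of 23 in secretory luminal (4.19%) and 0 of 6 in vascular endothelial nuclei (2.53%). In myoepithelial nuclei 16 of 21 genes lay lower in KO-labelled animals, with a median log2 fold change of -0.18 against -0.01 over all genes tested. In macrophages 9 of 13 lay lower (median -0.23 against 0.01), and in fibroblasts 13 of 16 lay higher (median 0.20 against 0.01). In the other 4 types the medians were -0.05 in adipocytes, 0.00 in luminal progenitors, 0.01 in secretory luminal and 0.08 in vascular endothelial nuclei. Genes of 1 cell type are not independent of each other, so these counts carry no test.

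**Figure D5:**
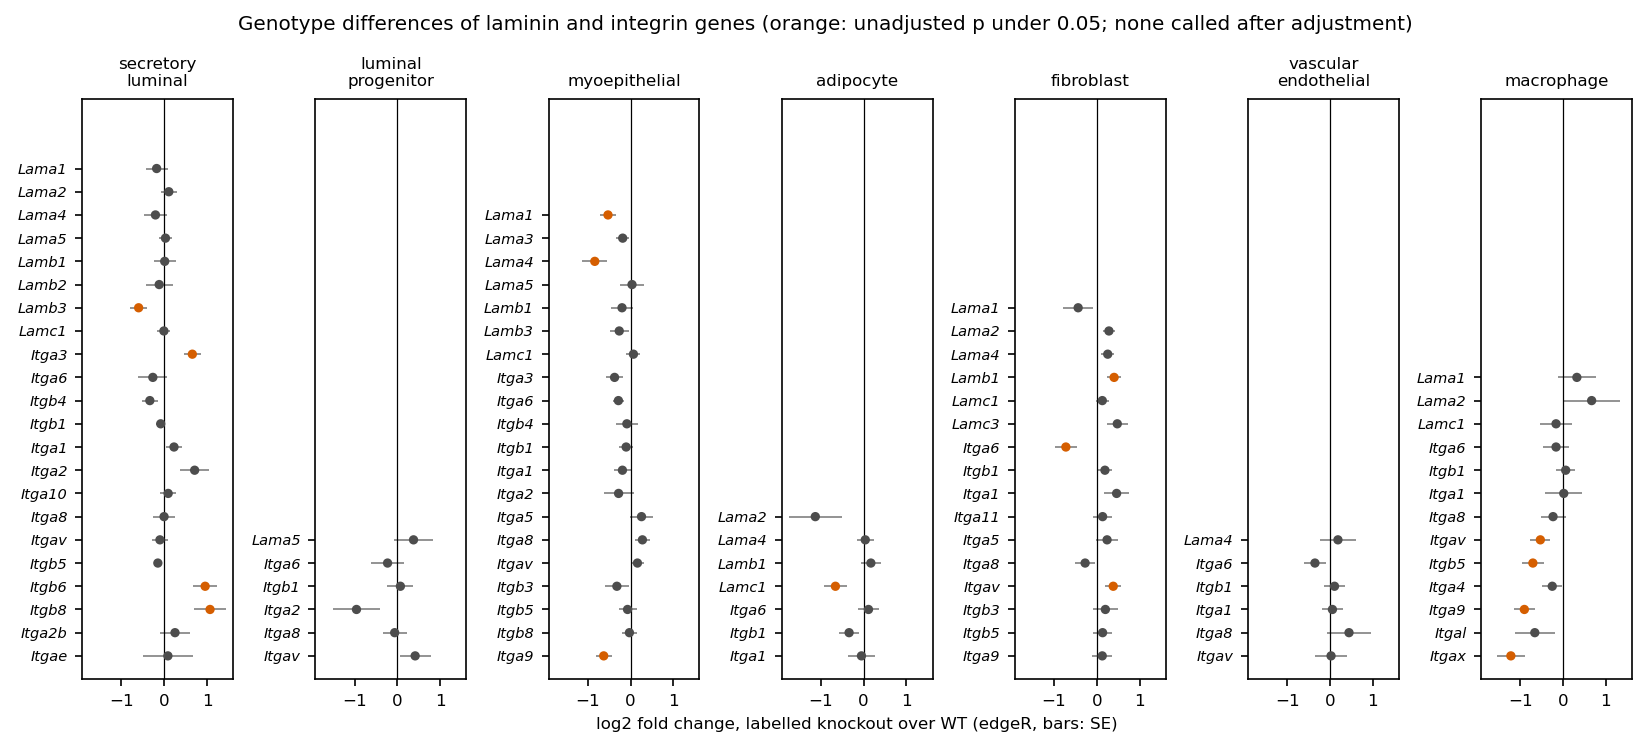
Log2 fold change of the tested laminin and integrin genes, 1 of the 37 left out, KO-labelled animals over WT, from edgeR with its SE, in 7 cell types. The 15 orange points have an unadjusted p under 0.05, none passed after adjustment, and points lie mostly left of 0 in myoepithelial and macrophage nuclei and right of 0 in fibroblasts.

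In macrophage nuclei the smallest p belonged to Itga9 and Itgax. Itga9 was at 390, 300.4, 303 and 234 TMM-scaled CPM (CPM after edgeR's scaling) in WT animals 1 to 4 and at 106, 154, 178 and 222 in KO-labelled animals 1 to 4. On the log2 scale the change was -0.91 ± 0.24 (SE, edgeR adjusted p = 0.635), and every WT animal lay above every KO-labelled animal. Itgax was at 140, 73.4, 107 and 64.7 TMM-scaled CPM in WT animals and 36.6, 38.5, 21.4 and 59.4 in KO-labelled animals (log2 -1.22 ± 0.33, edgeR adjusted p = 0.635), again without overlap. Itgb5 (log2 -0.71) and Itgav (-0.53), given after their values were seen, were the other 2 macrophage genes with an unadjusted p under 0.05. All 4 genes were higher in the cluster led by Klra2 in each of the 8 animals. So was Itga8 (165 against 63.6 CPM pooled), with a log2 fold change of -0.23 in macrophages. Itga6, Itgal and Lama2 were higher there in 7 of 8 animals, with log2 fold changes of -0.16, -0.66 and 0.67. The other cluster, led by F13a1, held 21.7%, 25.5%, 41.8% and 59.4% of the nuclei of both in WT animals 1 to 4 and 50%, 50%, 69.7% and 60% in KO-labelled animals 1 to 4. Summed levels of the 9 dendritic markers, all with UMIs, ran from 1655 to 2974 CPM in macrophage nuclei of WT animals and from 1028 to 2031 in KO-labelled animals. Within the cluster led by Klra2 alone, the log2 fold changes were -0.57 for Itga9, -0.88 for Itgax, -0.41 for Itgb5 and -0.13 for Itgav, with edgeR adjusted p of 0.760, 0.677, 0.824 and 0.937. B cell markers, 4 of 7 with UMIs, summed to 18.0 to 48.5 CPM in macrophage nuclei of WT animals and 59.1 to 148 in KO-labelled animals. The part of the cluster shares and of these markers in the macrophage values was not tested.

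In myoepithelial nuclei Itga9, whose receptor binds tenascin C and other matrix ligands, was at 121, 168, 175 and 177 TMM-scaled CPM in WT animals 1 to 4 and at 71.0, 112, 124 and 104 in KO-labelled animals (log2 -0.63 ± 0.19, edgeR adjusted p = 0.316). The groups overlapped only through WT animal 1, the lowest control. Lama4 was at 40.2, 35.6, 29.6 and 34.96 TMM-scaled CPM and at 13.7, 23.999, 16.3 and 22.9 (log2 -0.84 ± 0.29, edgeR adjusted p = 0.434), without overlap. Lama1, given after its values were seen, was the third gene there with an unadjusted p under 0.05 (log2 -0.53). Itga6, also given after its values were seen, did not overlap either, at 419 to 522 TMM-scaled CPM in WT animals and 371 to 418 in KO-labelled animals (log2 -0.28 ± 0.14, edgeR adjusted p = 0.662). The cluster led by Myh11, where Lama1 and Itga9 were higher in 8 of 8 animals and Lama4 in 6 of 8, held 37.1% to 54.5% of myoepithelial nuclei in WT animals and 38.3% to 46.1% in KO-labelled animals. Fibroblast markers, all 11 with UMIs, summed to 295 to 362 CPM in myoepithelial nuclei of WT animals and 298 to 353 in KO-labelled animals.

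In adipocytes, the cells in which the labels place the deletion, Lamc1 was at 262, 206, 219 and 259 TMM-scaled CPM in WT animals 1 to 4 and at 121, 187, 211 and 78.3 in KO-labelled animals (log2 -0.66 ± 0.26, edgeR adjusted p = 0.551). KO-labelled animal 3 alone lay inside the WT range. Lama2 was at 77.2, 29.5, 23.1 and 341 TMM-scaled CPM and at 29.2, 63.4, 36.0 and 83.2 (log2 -1.13 ± 0.63, edgeR adjusted p = 0.688). WT animal 4 alone carried that difference, and without it the log2 fold change was 0.24. Fibroblast markers, all 11 with UMIs, summed to 299, 255, 283 and 382 CPM in adipocyte nuclei of WT animals 1 to 4 and to 218 to 535 in KO-labelled animals. WT animal 4 was the highest of the WT animals in these markers as in Lama2. A KO-labelled animal reached 535 CPM of the markers, while Lama2 was at most 83.2 TMM-scaled CPM in KO-labelled animals. The part of these markers in the result was not tested. Lama4, the chain that marked adipocytes, ran from 436 to 803 CPM over WT animals and 533 to 740 over KO-labelled animals, so any difference was smaller than the spread.

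In fibroblasts Itga6 was at 114, 92.5, 85.8 and 61.8 TMM-scaled CPM in WT animals and 74.3, 36.0, 58.0 and 45.9 in KO-labelled animals (log2 -0.72 ± 0.25, edgeR adjusted p = 0.881). Lamb1 was at 218, 200.4, 205 and 178 and at 243, 334, 204 and 280 (log2 0.40 ± 0.17, edgeR adjusted p = 0.881). Both genes overlapped between the groups. Itgav, given after its values were seen, did not, at 79.2 to 112 TMM-scaled CPM in WT animals and 120.2 to 159 in KO-labelled animals (log2 0.38 ± 0.18, edgeR adjusted p = 0.898). Myoepithelial markers, all 11 with UMIs, summed to 72.9 to 247 CPM in fibroblast nuclei of WT animals and 138 to 328 in KO-labelled animals. Macrophage markers, 9 of 10 with UMIs and Lyve1 at 0, summed to 71.3 to 146 CPM in WT animals and 147 to 240.3 in KO-labelled animals, without overlap and in the direction of Itgav. Itgb5 and Itga9, also highest in macrophages, had log2 fold changes of 0.14 and 0.13 in fibroblasts, with overlap. The 7 neuron markers, all with UMIs, summed to 27.0 to 95.7 and 12.1 to 22.5 CPM. The part of these markers in the fibroblast values was not tested.

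In secretory luminal nuclei the genes with the smallest p were at very low levels. Itgb6 was at 4.05, 2.51, 3.32 and 4.78 TMM-scaled CPM in WT animals and 4.85, 7.74, 10.2 and 5.73 in KO-labelled animals (log2 0.96 ± 0.28, edgeR adjusted p = 0.557), just without overlap. Itga3 was at 4.05, 3.64, 4.64 and 5.29 and at 5.2005, 7.31, 7.47 and 7.95 (log2 0.66 ± 0.20, edgeR adjusted p = 0.557). Given after their values were seen, Lamb3 had a log2 change of -0.60 without overlap of the groups and Itgb8 one of 1.07 with overlap (edgeR adjusted p = 0.557 and 0.559). The 11 myoepithelial markers, all with UMIs, summed to 33.4 to 41.6 CPM in secretory luminal nuclei of WT animals and 36.5 to 50.1 in KO-labelled animals, and their part in these values was not tested.

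The 2 types with the fewest nuclei gave wide intervals. In luminal progenitors Itga2 was at 442, 264, 257 and 0 TMM-scaled CPM in WT animals and 34.6, 101, 231 and 112 in KO-labelled animals (log2 -0.96 ± 0.54, edgeR adjusted p = 0.945), and Itgav had a log2 fold change of 0.42 ± 0.36 (edgeR adjusted p = 0.947). In vascular endothelium Itga6 had -0.35 ± 0.26 and Itga8 0.45 ± 0.51 (edgeR adjusted p = 0.980 for both). All 4 overlapped between the groups, and Itga2, Itgav and Itga8 changed sign under at least 1 other setting. Macrophage markers, 8 of 10 with UMIs and F13a1 and Cd68 at 0, summed to 0 to 37.3 CPM in luminal progenitor nuclei of WT animals and 46.8 to 135 in KO-labelled animals, and their part in these values was not tested.

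Lama2 in vascular endothelium, chosen after its values were seen, was too low for edgeR's filter. It had 2, 0, 3 and 3 UMIs in WT animals 1 to 4 (19.8, 0, 15.7 and 24.5 CPM) and 18, 29, 28 and 4 in KO-labelled animals 1 to 4 (80.5, 125, 212 and 48.5 CPM). The groups did not overlap, and with no filter on low counts the gene was called (log2 2.80, edgeR adjusted p = 4.5e-05). Fibroblast markers, all 11 with UMIs, summed to 196 to 314 CPM in these nuclei of WT animals and 308 to 699.6 in KO-labelled animals, and the 9 pericyte markers, all with UMIs, to 41.8 to 65.3 and 45.3 to 471 CPM. Dendritic markers, 7 of 9 with UMIs and Flt3 and Xcr1 at 0, summed to 98.0 to 194 and 204 to 264 CPM. Their part in the Lama2 values was not tested.

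Partners of these genes were taken from 5 lists chosen by function. Of the 25 basement membrane partners 21 were tested in some type, as were 17 of 18 non-integrin laminin receptors, 4 of 4 hemidesmosome partners, 29 of 31 integrin adaptors and 15 of 22 other integrin ligands. None of these genes was called in any type at an adjusted p of 0.05 by the main edgeR fits or by DESeq2. Over the 39924 tests of all genes these made 2 and 29 calls. A gene that was not called may still differ. An unadjusted p under 0.05 came in 6 of 63 tests of basement membrane partners (3 higher, 3 lower), 3 of 58 of laminin receptors (1 higher, 2 lower), 1 of 13 of hemidesmosome partners (higher), 5 of 120 of adaptors (2 higher, 3 lower) and 9 of 50 of ligands (all 9 higher in KO-labelled animals), against 7.01% of all tests.

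Among the ligands, Tnc, which encodes tenascin C, was at 85.7 ± 32.7 TMM-scaled CPM in myoepithelial nuclei of WT animals and 209 ± 127 in KO-labelled animals (SD, n = 4 each), a log2 change of 1.19 ± 0.31 (SE) at an edgeR adjusted p of 0.224. Without KO-labelled animal 3, the highest at 395, the log2 change was 0.75. Tnc was called when low genes were not filtered (edgeR adjusted p = 2.4e-07). Spp1, the RGD ligand osteopontin, had a log2 fold change of 1.05 in macrophages (edgeR adjusted p = 0.754), and 0.54 once the finer clustering took the cluster led by Klra2 out of them. Col4a1, a chain of the collagen network that laminin sheets are tied to, was at 220 ± 67.6 TMM-scaled CPM in adipocytes of WT animals and 107 ± 38.0 in KO-labelled animals (SD, n = 4 each), a log2 change of -0.99 ± 0.28 (SE) at an edgeR adjusted p of 0.340, and Col15a1 had 0.62 in fibroblasts (edgeR adjusted p = 0.881). In luminal progenitors the dystroglycan gene Dag1 had a log2 fold change of 1.00 and Dmd, the dystrophin gene, -0.76, which changed sign with 1000 UMIs as the minimum per nucleus (edgeR adjusted p = 0.873 for both), and Dst, a plakin of hemidesmosomes, had 0.62 (edgeR adjusted p = 0.897). Cd151, a tetraspanin that associates with laminin-binding integrins, had -0.50 in myoepithelial nuclei (edgeR adjusted p = 0.735). Of the adaptors, Lims1 had -0.39 in secretory luminal nuclei and Lims2 1.02 in adipocytes (edgeR adjusted p = 0.560 and 0.581).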

How the data were processed

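Nuclei of 8 animals shared 1 droplet library and a hashtag library. The authors deposited raw UMI counts per gene and barcode. Cell Ranger 7.2.0, fastp and the build GRCm39 are named in the submitters' processing notes. Barcodes with at least 500 UMIs, 300 genes and under 5% mitochondrial UMIs were kept (20854 of 21805). HTODemux of Seurat 5.3.0 (positive quantile 0.99) assigned animals, leaving out 1 hashtag with 12088 UMIs, and 2041 doublets between hashtags were removed. Clustering used scanpy 1.11.5 (2000 variable genes without the 37, 30 components, 15 neighbours, Leiden resolution 0.5), and a name needed at least 3 markers. Counts summed per animal and type were tested with edgeR 4.0.16 (quasi-likelihood, filterByExpr, TMM, genotype only, Benjamini-Hochberg over all genes tested), after a test on simulated counts with known fold changes. DESeq2 1.42.0 was an alternative.

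Level ranges over animals are given for genes with at least 100 UMIs and a mean of at least 50 CPM in their highest type. For genotype the 2 tested genes with the smallest p in each type, and in each partner list, are named. Lowly expressed genes are accounted for by level, and other genes were chosen after their values were seen. The genes and lists were chosen with earlier results of these data known. Values of 1 of the 37 genes are not reported here, although it enters the counts.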

Additional observations from a re-analysis of the deposited data

Results flagged for a closer look

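Of 51 groups of 4 or 8 animals examined for the named genes, 3 held an animal set apart by more than Dixon's 95% limit for the gap to its nearest neighbour, and chance alone gives about 1 in 20. Lama2 in adipocyte nuclei was at 341.3 TMM-scaled CPM in WT animal 4, the highest of 4. Itga9 in myoepithelial nuclei was at 120.6 TMM-scaled CPM in WT animal 1, the lowest of 4. Lama3 in myoepithelial nuclei was at 469.2 CPM in WT animal 4, the highest of 8.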

How the results depend on the processing

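Of the counts recomputed under other settings, 114 stayed within 1.5 times and 11 did not. Genotype log2 fold changes stayed on their side of 0 and of the threshold in 389 cases, 7 changed sign and 3 passed the threshold. The share of all genes called is not given for the 2 alternative fits that follow, so their calls stand without a background. Without the filter on low counts edgeR called 2 laminin and integrin genes in place of 0, Itga9 in macrophages (log2 -0.91, adjusted p = 0.0402) and Lama2 in vascular endothelium (2.80, adjusted p = 4.5e-05), and 1 partner in place of 0, Tnc in myoepithelial nuclei (1.22). With the replicate number as a block it called 0 laminin and integrin genes and 1 partner, Tnc (1.18, adjusted p = 0.0012), but the lowest correlation of same-numbered animals was -0.13 to 0.018 over the 7 types and the highest 0.0099 to 0.37, over 0.1 for every pair in none, with 0 to 3 of 4 WT animals closest to their own number, so the animals were taken to share only a number. The sign changed for Lama2 in adipocytes without WT animal 4 (leaving out 1 animal gave -1.48 to 0.24), Itga8 in vascular endothelium without KO-labelled animal 1 (-0.030 to 0.84), Itga2 and Itgav in luminal progenitors with hashtags scaled within barcodes (0.22 and -0.20), Itgav there at Leiden resolution 1.0 (-0.13), and Dmd there with at least 1000 UMIs per nucleus (0.13) or without the highest Scrublet scores (0.10). The cause was not tested. Of the 37 genes, 30 to 37 kept their highest type. Itgav, Itgb5 and Itga9 left macrophages at Leiden resolution 1.0, with at least 1000 UMIs and without the highest Scrublet scores. Macrophages held 6 with at least 1000 UMIs, vascular endothelium 1, and secretory luminal nuclei 0 there and without the highest Scrublet scores. Leaving out each animal in turn gave 0 calls, 9 to 10 genes highest in macrophages, 10 to 12 in myoepithelial nuclei, 5 to 7 in fibroblasts, 3 to 4 in adipocytes, 3 to 4 in luminal progenitors, 2 to 3 in vascular endothelium and 0 to 1 in secretory luminal nuclei. Hashtag assignment with all 10 hashtags could not be fitted and was not run.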
